A study of Mus musculus with 6 samples.

Results

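The genes described here are the heat shock proteins and the J-domain proteins, the chaperone families that fold, refold and deliver client proteins. The cells were B cells of the germinal center (GC), the site in lymphoid tissue where dividing B cells diversify their antibodies. Members were all protein-coding entries of the deposited gene table whose names begin as Hspa, Hspb, Hspd, Hspe, Hsph or Hsp90, or as Dnaja, Dnajb or Dnajc followed by a digit. This gave 64 genes of 19680, made up of 22 heat shock protein entries, 4 Dnaja, 12 Dnajb and 26 Dnajc genes. Some names in this set are historical: Hspb11 encodes a protein of intraflagellar transport, and Hspbp1 and Hspbap1 encode binding partners of heat shock proteins.

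Total RNA was sequenced from B220+ CD38- FAS+ cells sorted from the spleens of C57BL/6 mice aged 6 to 8 weeks, 14 days after an intraperitoneal dose of 100 µg of NP-CGG, a protein antigen that carries a small hapten. The cKO group (3 libraries) had genotype Senp1flox/flox with Cγ1-Cre, and the WT group (3 libraries) had genotype Senp1flox/flox without Cre, so all 6 libraries carry the floxed Senp1 alleles. Senp1 encodes a protease that removes the modifier SUMO from proteins, and Cγ1-Cre is expressed from the IgG1 constant region, in B cells that have been activated. Because WT mice lack Cre altogether, the loss of Senp1 and the presence of Cre cannot be told apart. Whether the 3 libraries of a group stem from 3 mice is not stated in the labels; the p-values then measure only how far these libraries spread, which may be technical.

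HSP70 proteins bind short unfolded stretches of other proteins and are driven by ATP. J-domain proteins bring clients to HSP70 and start ATP hydrolysis, nucleotide exchange factors of the HSP110 type release the client, and HSP90 completes the maturation of kinases, receptors and transcription factors. Heat shock factor 1 (HSF1) turns on the cytosolic inducible members under protein stress, while the endoplasmic reticulum (ER) members belong to the unfolded protein response. In B cells the antibody-diversifying enzyme AID is a client of cytosolic HSP90 and is stabilised with help from the J-domain protein DNAJA1, and BCL6, the central GC transcription factor, is also an HSP90 client.

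Senp1 measured 373, 425 and 398 normalized counts in cKO, against 915, 868 and 891 in WT, with no overlap between the groups. The libraries held 3019152 to 9657005 gene-assigned reads in cKO and 5160902 to 10339054 in WT, and cKO replicates 2 and 3 were the shallowest. On the first principal component (33.2% of the variance) replicate 1 of both groups lay at one end, at -49.1 in cKO and -54.4 in WT. WT replicates 2 and 3 lay between, at -10.1 and 16.3. The other end held cKO replicates 2 and 3, at 56.2 and 41.2, so this axis also separated cKO from WT within replicates 2 and 3. Of the cell type markers, all 11 of B and GC B cells, Cd79a, Bcl6 and S1pr2 among them, were detected in every library, with Mybl1 and Rgs13 (2 of 11) lower in cKO before adjustment (p under 0.05) and summed levels of 38549.6 to 41572 normalized counts in cKO and 39661 to 44179.5 in WT. The 8 T cell markers summed to 509 to 1566 in cKO, highest in replicate 2 and with 3 at 0 in replicate 3, and 599.7 to 689.9 in WT. Outside cKO replicate 2 most of this sum was Lck, at 563 and 470 in cKO and 484 to 574 in WT. All 8 were highest in cKO replicate 2. Cd3d, for instance, measured 19.5, 133 and 0 in cKO, against 17.2, 19.2 and 20.5 in WT. The 8 macrophage or monocyte markers summed to 292 to 457 in cKO, with 3 at 0 in replicate 3, and 109 to 298 in WT, and all 8 had a positive difference without passing the test. The 6 erythroid markers summed to 32.5 to 133 in cKO and 38.4 to 56.4 in WT, the 4 neutrophil markers to 12.3 to 86.8 in cKO and 0.854 to 86.2 in WT, and the 5 stromal or endothelial ones to 313 to 649 in cKO and 261 to 505 in WT, with Col1a1, Col3a1 and Cxcl13 too low to test. Nearly all of the stromal or endothelial sum was Pecam1, at 303 to 636 in cKO and 257 to 498 in WT. The 6 plasma cell markers summed to 7131 to 16139 in cKO and 8329 to 12951 in WT, and the part of these other cells in the results below was not tested. In such bulk samples, fewer cells of a type and less RNA per cell cannot be told apart.

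No heat shock or J-domain gene of GC B cells passed the test between cKO and WT, and most well-measured members had confidence intervals that lay within a 2-fold change. Levels are normalized counts, that is, reads over the size factor of their library, and differences are cKO minus WT on the scale log2(normalized count + 1) from limma, with the standard error (SE). Of the 64 members, 60 had a mean of at least 1 and were tested. By limma 0 of the 60 passed an adjusted p of 0.05, where 0% of the 14678 genes tested did (0 genes). Before adjustment 756 genes had a p under 0.05. The deleted gene Senp1, at -1.16 ± 0.12, was not called either: its limma adjusted p of 0.111 was the smallest of all tested genes. The test therefore did not call even a loss of over 1 log2 unit with separate groups. At an unadjusted p under 0.05 there were 0 members with higher and 1 with lower values in cKO, beside 2.98% of all tested genes higher, 2.17% lower and 5.15% in either direction. Separate groups, with no value of one within the range of the other, were found in 5 of the 60 members, 4 higher and 1 lower in cKO, beside 6.28% of all tested genes higher, 5.28% lower and 11.6% in either direction. In either direction together the members' shares were 1.67% and 8.33%, beside 5.15% and 11.6% of all tested genes. They rest on 1 and 5 members, so few that they give no basis for a difference from all genes. The median difference was 0.015 over the members and -0.0019 over all tested genes, and 33 of 60 members had a positive difference, as did 49.8% of all tested genes. On the recovered reads, edgeR called 0 members (1 at an unadjusted p under 0.05) and DESeq2 also 0 (1), beside 0 and 23 genes called in all. The authors' deposited table lists 0 of 57 members with an adjusted p at a value under 0.05 (0.197% of all genes with one) and 1 at an unadjusted p under 0.05.

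Of the 39 members with a mean of at least 100 normalized counts, 37 had a 95% confidence interval that lay wholly within 1 log2 unit of no difference, and 20 had one within 0.5. The 2 with wider intervals were the ER cochaperone gene Dnajb9 and Dnajb4. The median spread between libraries of a group was 0.176 log2 units (SD) in these 39 members and 0.214 in all 7030 genes with a mean of at least 100. The median level was 681 normalized counts in these members and 337 in those genes, so the spreads are not compared at equal level. All 64 members together took 1.19% to 1.38% of the reads in cKO, and 1.24% to 1.39% in WT.

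**Figure D1:**
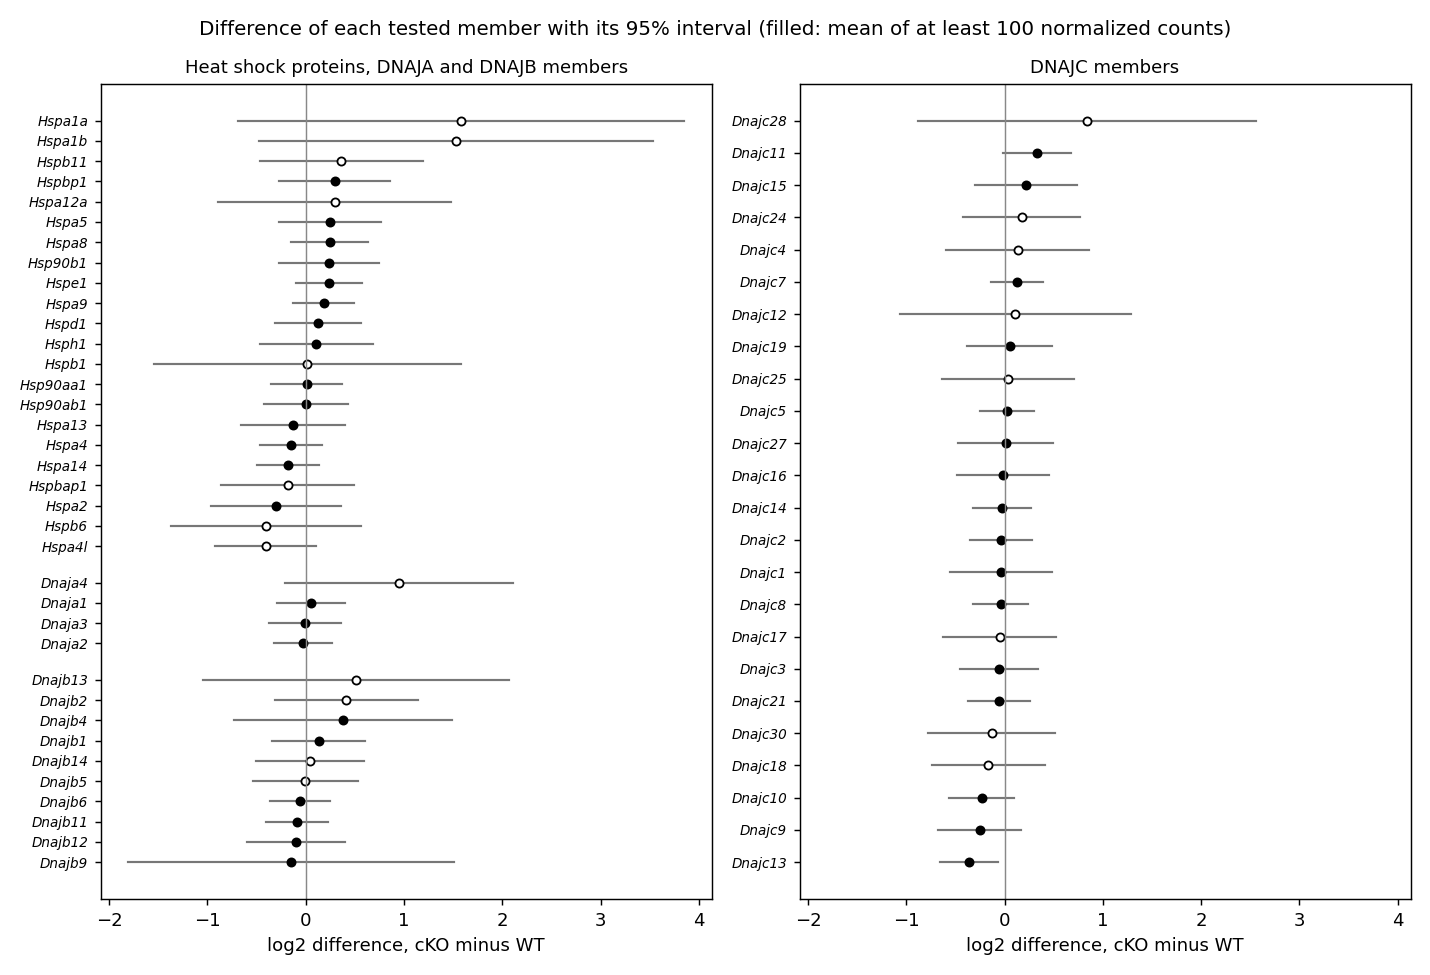
Log2 difference (cKO minus WT, x axis) of each of the 60 tested members (y axis, by family and ordered by the difference), with its 95% confidence interval from limma as a grey line. Filled points have a mean of at least 100 normalized counts; the interval of Dnajc13 alone leaves out 0, and those of Hspa1a, Hspa1b and Dnajc28 are the widest.

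The cytosolic HSP90 genes had differences near 0 that were smaller than the spread of the libraries. Hsp90ab1, the constitutive isoform, measured 20439, 16150.1 and 21682 in cKO, against 20527, 19085 and 18094 in WT, in normalized counts as all levels that follow. It had the lowest value of all 6 libraries in cKO replicate 2 and the highest in cKO replicate 3, so the groups overlapped. The difference was 0.0046 ± 0.19 (SE), with a 95% interval of -0.42 to 0.43. Hsp90aa1, the stress-inducible isoform, measured 5045, 4825 and 6604 in cKO, against 5229.7, 5555 and 5417 in WT, with a difference of 0.010 ± 0.16 and an interval of -0.35 to 0.37. The sign of both differences turned with the scaling of the libraries, to -0.075 and -0.069 with library totals, and their limma adjusted p-values were 0.998 and 0.995. Hsp90ab1 and Hspa8 together made up 43.5% to 48.0% of the members' normalized counts in cKO and 44.6% to 45.8% in WT.

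Divided by exon length, to compare genes, Hsp90ab1 stood first of the 64 members with 6477 in cKO and 6414 in WT, in normalized counts per kilobase of exon. Hspa8, the constitutive cytosolic HSP70, was the second at 3466 in cKO and 2918 in WT. Hsp90aa1 (1397 in cKO and 1374 in WT) and Hspa5, the HSP70 of the ER, (1363 in cKO and 1127 in WT) came next, and their ranges over the libraries overlapped in both groups. In the same unit the stress-inducible Hspa1a had 13.9 in cKO and 9.57 in WT.

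The remaining cytosolic HSP70 machinery likewise gave no member past the test. Hspa8 measured 14247, 13451 and 17023 in cKO, against 12719, 11284 and 13652 in WT. Only the highest WT library, replicate 3, reached into the cKO range, and the difference was 0.25 ± 0.17 (limma adjusted p = 0.928). It was -0.0044 after quantile normalization. Part of the Hspa8 sequence recurs elsewhere: 38.6% of its 50-base transcript windows also occur in transcripts of other genes, and the sources used here do not give how reads with several matches were counted. The same holds for Hsp90aa1 (47.5%), Hspd1 (39.7%) and Hspb1 (48.8%).

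The HSP110 genes encode the exchange factors that release clients from HSP70. Hspa4 measured 3127, 2843 and 3570.4 in cKO, against 3333, 3772 and 3475 in WT, with a difference of -0.15 ± 0.14. Its relative Hspa4l was the lowest of the 3 in level, at 94.4, 87.3 and 73.5 in cKO, against 141, 91.6 and 111 in WT, and all but cKO replicate 1 lay below the lowest WT library. The Hspa4l difference was -0.41 ± 0.23 (limma adjusted p = 0.915). Hsph1, the stress-inducible HSP110, measured 1467, 867 and 1438 in cKO, against 1456, 857 and 1168 in WT. Replicate 2 was the lowest Hsph1 library in each group, and the difference was 0.11 ± 0.25. Hspa14, which works with the J-domain protein DNAJC2 at the ribosome, measured 700.1, 566 and 554 in cKO, against 698, 685 and 667 in WT (-0.18 ± 0.14, adjusted p = 0.93). The identifier of this entry (ENSMUSG00000051396) is named Gm45902 in GENCODE M21, where its exons overlap those of Hspa14 over 7.38% of their bases.

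Among the J-domain partners of cytosolic HSP70, the stress-inducible Dnaja1, Dnajb1 and Dnajb4 had overlapping groups. Dnaja1, the cochaperone of AID, measured 1351, 1152 and 1577 in cKO, against 1265, 1206 and 1433 in WT. Its difference was 0.056 ± 0.15 with a 95% interval of -0.29 to 0.40 and an adjusted p of 0.98, and its sign turned with library totals (-0.024). Dnajb1, the classic heat-inducible HSP40, measured 604, 592 and 880.4 in cKO, against 545, 559 and 785 in WT, with replicate 3 the highest in each group and a difference of 0.13 ± 0.21. Dnajb4 measured 59.7, 165 and 135 in cKO, against 46.5, 83.0 and 155 in WT. Replicate 1 was the lowest Dnajb4 library in each group, and the difference was 0.38 ± 0.49. Hspb1, the small heat shock protein, was near the limit of detection in all libraries, at 1.63, 0 and 2.04 in cKO, against 1.01, 1.06 and 0.854 in WT. These are at most 3 reads a library, and the 0 in cKO replicate 2 allows up to 5.69 normalized counts (3 reads, for counting error only).

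**Figure D2:**
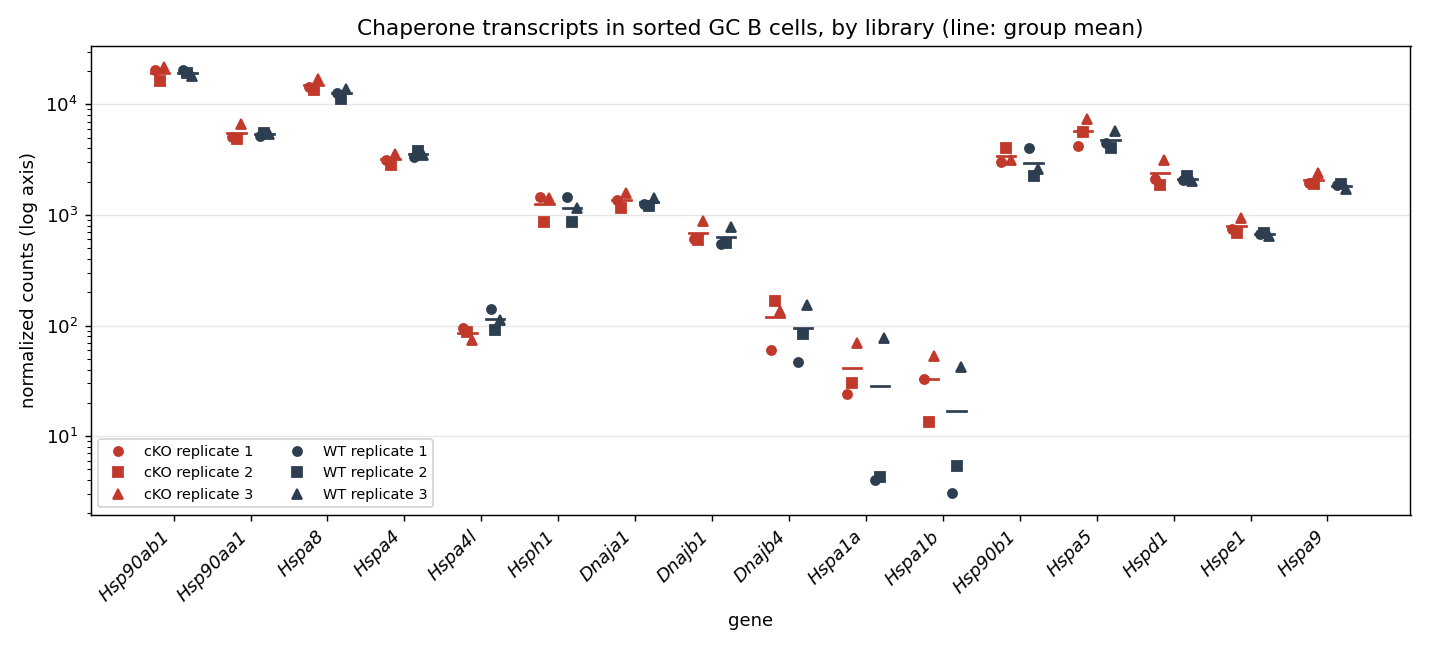
Normalized counts (y axis, log scale) of 16 cytosolic, ER and mitochondrial chaperone genes in each library, cKO in red and WT in dark blue, with a marker for each replicate number and a line at the group mean. The groups overlap for all genes shown but Hspa9, and Hspa1a and Hspa1b have the widest spread between libraries.

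Hspa1a and Hspa1b, the strictly heat-inducible HSP70 genes, had the largest positive differences of the tested members on the log2(normalized count + 1) scale, and the largest spread between libraries. Among the members tested by limma, DESeq2 on the recovered reads put Dnaja4 first instead, at 1.16. Hspa1a measured 23.9, 30.4 and 69.4 in cKO, against 4.04, 4.26 and 76.9 in WT, and Hspa1b 33.1, 13.3 and 53.1 in cKO, against 3.03, 5.32 and 41.9 in WT. WT replicates 1 and 2 had the lowest values of both genes, while WT replicate 3 lay within or above the cKO range. The summed reads of both genes were 105, 23 and 60 in cKO, against 14, 9 and 139 in WT. The difference was 1.58 ± 1.00 for Hspa1a (limma adjusted p = 0.928) and 1.53 ± 0.88 for Hspa1b (adjusted p = 0.926). On the recovered reads the estimates were smaller, 0.51 with edgeR and 0.53 with DESeq2 for Hspa1a, and 1.00 and 0.99 for Hspa1b. Single WT libraries moved the limma value in both directions. Without WT replicate 3 the difference was 2.88 for Hspa1a and 2.56 for Hspa1b, with limma adjusted p-values of 0.881 and 0.966. Without WT replicate 1 it was 0.91 for Hspa1a and 0.85 for Hspa1b, and without WT replicate 2 it was 0.94 and 1.18. Within replicate 1 it was 2.30 and 3.08, and within replicates 2 and 3 it was 1.22 and 0.76.

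Both genes lie on chromosome 17, 9951 bases apart, and are near copies: 58.8% of the 50-base windows of Hspa1a transcripts also occur in Hspa1b. The split of reads between them is therefore uncertain. Their summed normalized counts were 56.9, 43.6 and 123 in cKO, against 7.08, 9.58 and 119 in WT. Beside these stand the sums of 20 immediate early genes, which are switched on within minutes of stimulation or handling. They were 8697, 23476 and 28482 in cKO, against 7648, 13417 and 25231 in WT. WT replicates 1 and 2 were below WT replicate 3 in this sum too. The order differed for cKO replicate 1. Its immediate early sum was below that of WT replicate 2 (8697 against 13417). Its Hspa1a and Hspa1b sum was above that of WT replicate 2 (56.9 against 9.58). All 20 immediate early genes had positive differences (median 0.47, beside -0.0019 over all tested genes). Of these, 0 were called at a limma adjusted p of 0.05, and 1, Atf3, was at an unadjusted p under 0.05. The part of the immediate early genes in the values of Hspa1a and Hspa1b was not tested.

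**Figure D3:**
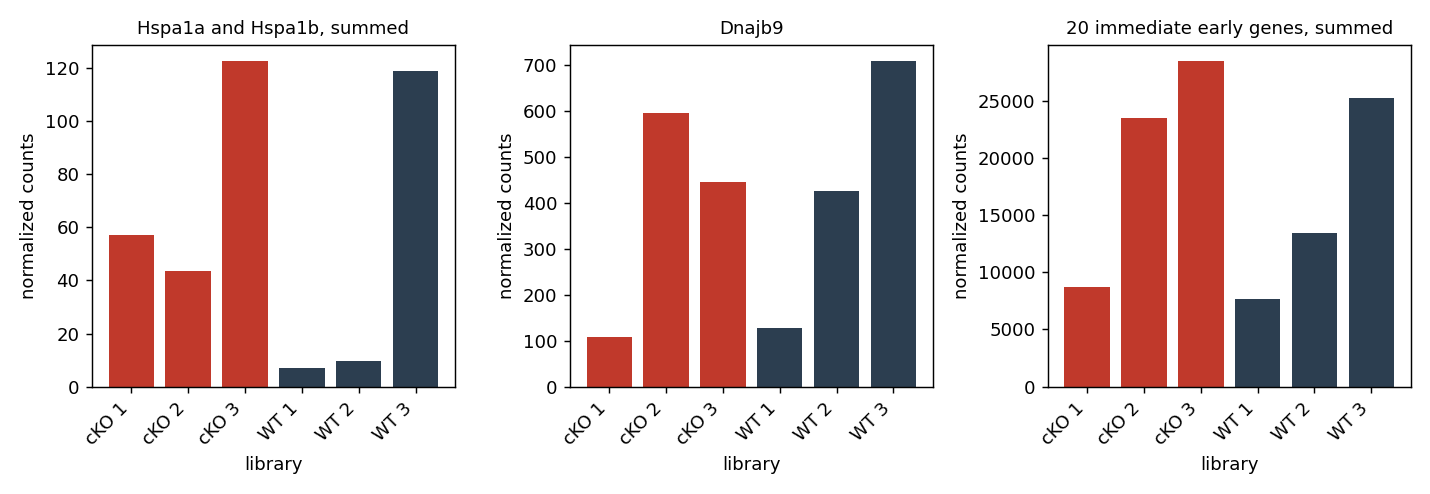
Normalized counts (y axes, from 0) in each library (x axis, cKO in red, WT in dark blue) of Hspa1a and Hspa1b summed, of Dnajb9, and of 20 immediate early genes summed. Replicate 1 of both groups is lowest for Dnajb9, at 108 and 129, and WT replicate 3 is high in all 3 panels.

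The sequences before the starts of Hspa1a, Hspa1b, Hspe1 and Dnaja4 are shown because they hold the letters that HSF1 is known to recognise, repeats of NGAAN in alternating orientation. They are the bases before the RefSeq start (GRCm38.p6), 5′ to 3′ on the strand of the gene, with GAA and TTC of each match to GAANNTTC or TTCNNGAA in capitals. The window of Hspa1a is chr17:34972157-34972286 (minus strand), that of Hspa1b chr17:34959239-34959368 (minus strand), that of Hspe1 chr1:55087998-55088127 (plus strand) and that of Dnaja4 chr9:54699429-54699558 (plus strand).
Hspa1a: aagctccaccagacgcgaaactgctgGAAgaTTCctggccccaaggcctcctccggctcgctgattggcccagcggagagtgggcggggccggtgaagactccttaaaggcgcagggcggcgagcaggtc
Hspa1b: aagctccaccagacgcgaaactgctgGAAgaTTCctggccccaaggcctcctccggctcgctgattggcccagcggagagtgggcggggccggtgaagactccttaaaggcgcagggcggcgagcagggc
Hspe1: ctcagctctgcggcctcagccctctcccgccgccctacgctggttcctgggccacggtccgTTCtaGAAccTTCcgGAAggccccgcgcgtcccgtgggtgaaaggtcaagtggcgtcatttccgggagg
Dnaja4: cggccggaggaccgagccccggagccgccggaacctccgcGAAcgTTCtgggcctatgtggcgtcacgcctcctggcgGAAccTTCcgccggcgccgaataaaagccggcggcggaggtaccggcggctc
The printed windows of Hspa1a and Hspa1b were equal at 129 of 130 bases. Hspe1 and Hspd1 are neighbours that start away from each other, and their windows overlap. The match in the window of Hspd1 is the same stretch of bases, read on the other strand. Both genes are counted below for this 1 stretch. RefSeq promoter windows of 300 bases (250 before to 50 after a start) were found for 52 of the 64 members; those of Hspa8, Hspa9, Hspa13, Hsp90aa1, Hsp90ab1, Dnajc2, Dnajc5, Dnajc11, Dnajc12, Dnajc18, Dnajc22 and Dnajc30 were not used here. A pair of facing units, GAANNTTC or TTCNNGAA on either strand, occurred in 13 of these 52 members, and in 17% of all 27025 genes with such windows. The longer form has one more unit (GAA, TTC and GAA, or TTC, GAA and TTC, each 2 bases apart, either strand) and contains the shorter one; it occurred in 4 members, Hspd1, Hspe1, Hsph1 and Dnajb6, and in 0.662% of all genes. A match describes letters, not binding.

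Among genes that surround the family, Hsf1 itself measured 249.99, 229.7 and 282 in cKO, against 237, 207 and 196 in WT (0.25 ± 0.16, limma adjusted p = 0.928), and cKO replicate 2 lay below the highest WT library. Of 15 heat shock factors and regulators 13 were tested, 0 passed the adjusted threshold, and 1, the oxygen-sensing factor Hif1a, was lower in cKO before adjustment (p under 0.05). Of 18 HSP90 cochaperones and partners 0 had an adjusted or an unadjusted p under 0.05. In 2 of the 18, 11.1%, the groups were separate, a share close to the 11.6% of all tested genes. These were Unc45a, a myosin chaperone (519, 457 and 576 in cKO, against 440.3, 429 and 392.13 in WT) and Tsc1 (406, 438 and 313 in cKO, against 501, 458 and 452 in WT), which also restrains mTORC1. Of 18 other HSP70 relatives and cofactors 0 had an adjusted or an unadjusted p under 0.05; St13, which holds HSP70 in its client-bound state, was the only one without overlap, at 1047, 1006 and 1068 in cKO, against 940.3, 973 and 898 in WT. The chaperonin TRiC and prefoldin, which fold actin and tubulin, also gave 0 of 14 by the same measures, with a median difference of 0.046.

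In the ER, 0 of 11 members passed the test. The differences of Hspa5 and Hsp90b1, the chief lumenal chaperones, took opposite signs in replicate 1 and in replicates 2 and 3. The replicate 1 difference rests on 1 library of each group, and the replicate numbers were not taken as pairs. Hspa5 (BiP), the HSP70 of the ER, measured 4175, 5669 and 7445 in cKO, against 4503, 4072 and 5727 in WT. Its difference was 0.25 ± 0.23 (limma adjusted p = 0.933). Hsp90b1 (GRP94), the HSP90 of the ER, measured 3029.7, 4033 and 3166 in cKO, against 4000.3, 2254 and 2609 in WT. Its values in cKO replicate 2 and WT replicate 1 stood above the rest. The difference was 0.24 ± 0.22 over all libraries, but -0.40 within replicate 1 and 0.56 within replicates 2 and 3; for Hspa5 these were -0.11 and 0.43. Dnajc10 (ERdj5), a J-domain protein that reduces disulfides, measured 851, 765 and 637 in cKO, against 900.4, 919 and 809.9 in WT, and cKO replicate 1 alone lay within the WT range (-0.23 ± 0.14, adjusted p = 0.928).

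Dnajb9 (ERdj4), a feedback regulator of the ER stress sensor IRE1, was picked after its values were seen because it had the widest library spread of the members with a mean of at least 100. It measured 108, 596 and 445 in cKO, against 129, 427 and 709.9 in WT. Replicate 1 was far below the others in each group, and the highest library, WT replicate 3, was 6.55 times the lowest, cKO replicate 1. The difference was -0.15 ± 0.73, and its sign rested on single libraries: it was -0.84 without WT replicate 1 and 0.60 without cKO replicate 1. The percentage of reads from mitochondrial genes, 3.66, 12.3 and 19.1 in cKO, against 2.71, 7.92 and 9.83 in WT, and the immediate early sum above were also lowest in replicate 1 of each group, and their part in Dnajb9 was not tested.

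Of the 11 ER members 0 were at an unadjusted p under 0.05, and the groups overlapped in all 11; 4 differences were positive and 7 negative, with a median of -0.056. Of 19 further ER folding and unfolded protein response genes 0 passed over all genes, and 1, Eif2ak3 (PERK), a sensor kinase of ER stress, was lower before adjustment (p under 0.05). Eif2ak3 measured 1052, 848 and 884 in cKO, against 1164, 1141 and 1392 in WT (-0.41 ± 0.14, adjusted p = 0.915), with every cKO library below every WT library. The ER lectin chaperone Calr had the opposite order, at 3773, 3921 and 4829 in cKO, against 3634, 3227 and 3752 in WT (0.23 ± 0.15, adjusted p = 0.928).

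The windows before Hspa5, Hsp90b1 and Dnajc3, which encodes the ER cochaperone p58IPK, are shown because they were the only ones of the 52 members with a window to hold the letters of the ER stress response element, CCAAT and CCACG with 9 bases between them on either strand, which 0.137% of all genes with windows held. Capitals mark the fixed letters of each match, and the windows are chr2:34771960-34772089 (plus strand), chr10:86705525-86705664 (minus strand) and chr14:118937802-118937931 (plus strand) of GRCm38.p6, from RefSeq. The values of Hspa5 and Hsp90b1 stand above, and Dnajc3 measured 503, 687 and 482 in cKO, against 628, 504 and 591 in WT.
Hspa5: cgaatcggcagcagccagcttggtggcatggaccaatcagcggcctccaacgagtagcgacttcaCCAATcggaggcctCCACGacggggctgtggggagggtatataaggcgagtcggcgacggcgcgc
Hsp90b1: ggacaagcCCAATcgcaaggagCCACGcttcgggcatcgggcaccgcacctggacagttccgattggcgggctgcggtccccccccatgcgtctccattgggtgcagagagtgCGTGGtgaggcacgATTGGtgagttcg
Dnajc3: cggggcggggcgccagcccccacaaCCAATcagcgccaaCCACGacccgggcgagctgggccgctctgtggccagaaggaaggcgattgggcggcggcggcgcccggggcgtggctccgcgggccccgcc

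Mitochondrial members made up 2 of the 5 members with separate groups, both higher in cKO and neither past the test; 2 of 9 mitochondrial members compares with 6.28% of all tested genes higher and 11.6% separate in either direction, and so few members give no basis for a difference. Hspa9 (mortalin), the matrix HSP70, measured 1926, 1906 and 2384 in cKO, against 1871, 1888 and 1700.1 in WT. Its lowest cKO library exceeded the highest WT library by a narrow margin, and the difference was 0.18 ± 0.14 (limma adjusted p = 0.93). Hspe1 (HSP10) measured 753, 689 and 936 in cKO, against 668, 693 and 642 in WT, and cKO replicate 2 fell within the WT range (0.24 ± 0.15, adjusted p = 0.928). Its chaperonin partner Hspd1 (HSP60) measured 2132, 1866 and 3127 in cKO, against 2081, 2258 and 2022 in WT, with cKO replicate 3 far above the rest (0.13 ± 0.19); without that library the difference was -0.087. Dnajc11, a J-domain protein of the mitochondrial outer membrane that associates with cristae-organising complexes, measured 442, 463 and 554 in cKO, against 405, 417 and 339 in WT. All 3 cKO values were higher, and the difference was 0.33 ± 0.15 (limma adjusted p = 0.915). Taken by replicate it was 0.13 in replicate 1 and 0.43 in replicates 2 and 3. In all, 7 of the 9 mitochondrial members had positive differences, beside 49.8% of all tested genes, with a median of 0.18. By limma 0 of them were at an unadjusted p under 0.05. The highest library for Hspa9, Hspd1, Hspe1 and Dnajc11 was cKO replicate 3, which also held the largest mitochondrial share of reads. That library was also the highest for members outside mitochondria, such as Hsp90ab1, Hspa8, Hspa5 and Dnaja1. The part of the mitochondrial share in these values was not tested.

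Dnajc13, the J-domain protein of early endosomes that works with the retromer, was the 1 member at an unadjusted p under 0.05. It measured 779.8, 744 and 643 in cKO, against 915, 990.1 and 881 in WT, so every cKO library lay below every WT library. The difference was -0.36 ± 0.13, with a 95% interval of -0.66 to -0.068, a limma p of 0.0216 and an adjusted p of 0.915 over all 14678 genes, and it is therefore not called. It was -0.23 within replicate 1 and -0.43 within replicates 2 and 3, and -0.44 to -0.28 over 19 alternative settings. The unadjusted p passed 0.05 in 17 of these and was 0.0752 without cKO replicate 3 and 0.0893 without WT replicate 2. Dnajc9, which pairs HSP70 with histones in dividing cells, measured 1303, 856 and 921 in cKO, against 1332, 1267 and 1029 in WT (-0.25 ± 0.19, adjusted p = 0.93), and cKO replicate 1 alone lay within the WT range.

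Dnaja4, a close relative of Dnaja1, had separate groups at a low level, 8.68, 15.2 and 6.13 in cKO, against 4.55, 5.32 and 3.42 in WT. These are 16, 8 and 3 reads in cKO and 9, 5 and 4 in WT. The difference was 0.95 ± 0.51 (limma adjusted p = 0.915). Of its exon bases 44.1% overlap Wdr61 on the opposite strand, and the sources used here do not give whether counting used strand, so reads of these genes may not be separated. Dnajc7, a TPR cochaperone that links HSP70 to HSP90, was the last of the 5 members without overlap and was picked for this, at 1590.5, 1665 and 1738 in cKO, against 1484, 1489 and 1588 in WT (0.13 ± 0.12, adjusted p = 0.933).

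The remaining members are given by range. The 7 other heat shock protein entries, Hspa2, Hspa12a, Hspa13, Hspb6, Hspb11, Hspbp1 and Hspbap1, had differences of -0.41 to 0.36 and a smallest limma p of 0.262. Hspa2, a HSP70 best known from testis, spanned a 2.32-fold range over the libraries, from 159 in cKO replicate 2 to 371 in WT replicate 1. The last 2 Dnaja genes, Dnaja2 and the mitochondrial Dnaja3, differed by -0.029 and -0.0072, with 95% intervals of -0.32 to 0.26 and -0.38 to 0.36. The 8 other tested Dnajb genes (Dnajb2, Dnajb5, Dnajb6, Dnajb9, Dnajb11, Dnajb12, Dnajb13 and Dnajb14) ranged from -0.15 to 0.51, with a smallest p of 0.225. The 20 other tested Dnajc genes ranged from -0.17 to 0.84, the last being Dnajc28 at under 6 normalized counts in every library, with a smallest p of 0.291.

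Among these 20, differences close to 0 with narrow intervals were found for Dnajc5, a chaperone of secretory vesicles (0.025, -0.25 to 0.30), Dnajc8, which is tied to splicing (-0.038, -0.32 to 0.24), Dnajc2, the ribosome-bound partner of Hspa14 (-0.036, -0.35 to 0.28), and Dnajc14 (-0.024, -0.32 to 0.27); these 4, like Hspa2 and Dnajc28, were picked after their values were seen. The 4 members left untested were barely detected: Dnajb3, Dnajb7 and Dnajc22 had 1 read each over the 6 libraries, and Dnajc6, the auxilin of nerve cells, had 6.

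**Figure D4:**
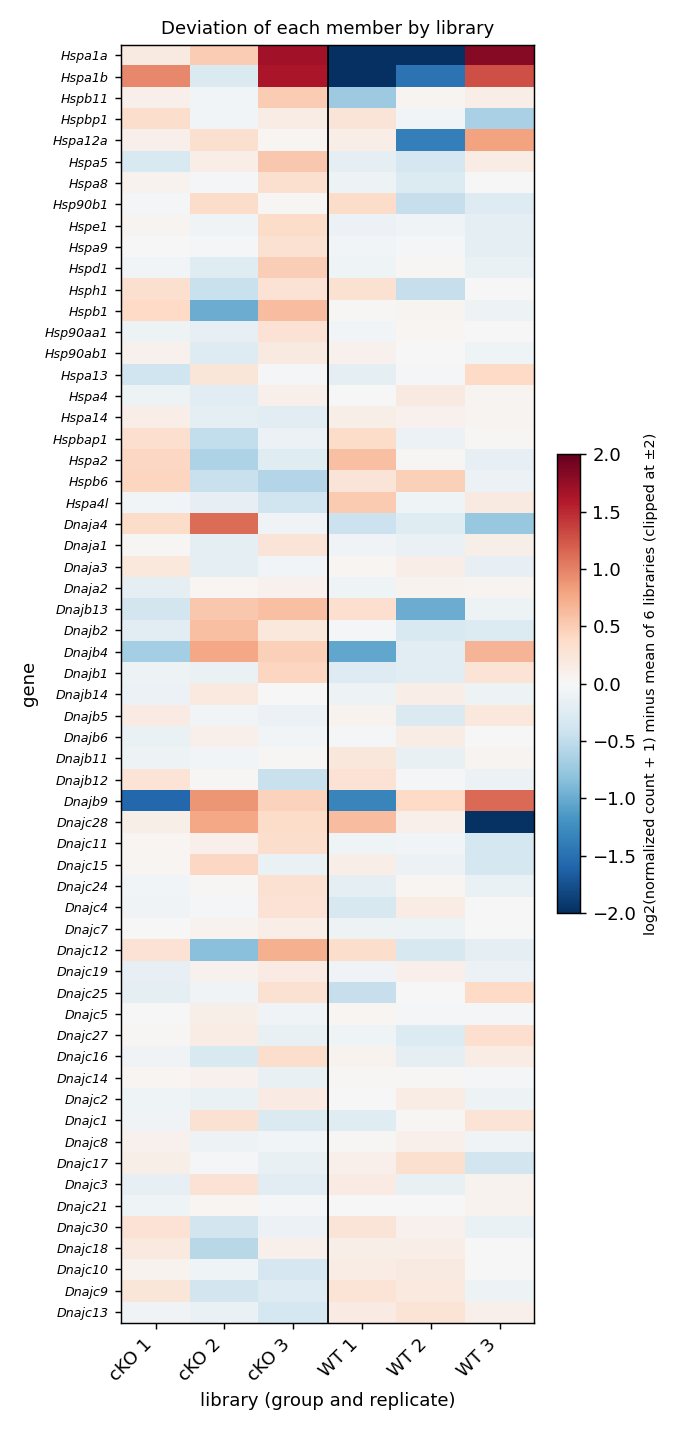
Deviation of log2(normalized count + 1) from the mean of the 6 libraries (colour, clipped at 2 on either side) for the 60 tested members (rows, by family and ordered by the difference between cKO and WT) in each library (columns, cKO left of the black line and WT right of it). Most rows are pale, and the strong colours belong to Hspa1a, Hspa1b, Dnajb9, Dnajb4, Hspa12a, Dnaja4 and Dnajc28 in a few libraries.

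Replicate 1 lay at one end of the first principal component. Of the 60 tested members, 30 had the same sign of the difference within replicate 1 as within replicates 2 and 3. The share over all tested genes was not worked out, so this count cannot be read as particular to the family. The median member difference was -0.0014 within replicate 1 and 0.039 within replicates 2 and 3. By family the medians were 0.12 for heat shock proteins, 0.024 for Dnaja, 0.021 for Dnajb and -0.020 for Dnajc genes. The summed level of the 22 heat shock protein entries was 53599.6 to 68786 normalized counts in cKO and 53165 to 58069 in WT, with the highest and the second lowest sums both in cKO. That of the 42 Dnaj genes was 14286 to 14868 in cKO and 14603 to 15093 in WT, a narrow band in which the groups overlapped.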

How the data were processed

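The deposited table gives, per gene and library, a normalized count: a signal that is never negative, deposited by the authors as read counts over the size factor of each library. Beside it stand the authors' log2 fold change with its standard error, their test score, their raw p-value and their adjusted one, per the file headers. The submitters' processing notes list DESeq2, HTSeq, SAMtools, HISAT, HISAT2 and TopHat2, with neither versions nor roles, and the build mm10. Not given in the sources used here are the annotation release, whether counting used strand, and how reads with several matches were counted. Per the labels' protocols, total RNA went into standard Illumina libraries; a poly(A) step is not mentioned.

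In each library 100% of values were whole multiples of the smallest step (tolerance 0.01 read), so read counts were recovered. Each read stood for 0.542 to 2.04 normalized counts in cKO and 0.506 to 1.06 in WT, and genes of low count are least precise in cKO replicates 2 and 3. The main test was limma 3.58.1 (R 4.3.3) with trend, fitted to log2(value + 1) of the 14678 genes whose mean reached 1, genotype alone in the model, two-sided, with Benjamini-Hochberg adjustment over all genes. This scale compares means of logs, and the pseudocount shrinks steady low values, while the count models compare group means; for members of low count the estimates can differ in either direction. Alternatives were edgeR 4.0.16 and DESeq2 1.42.0 on the recovered reads, other scalings, pseudocounts and filters, a replicate block, a term for replicate 1, and leaving out each library. On simulated counts of this comparison limma recovered 48% of 2-fold and 97% of 4-fold changes, with 14604 genes tested and 12 unchanged genes called. The changes were put only into protein-coding genes with a mean of at least 100 normalized counts. Counts were drawn independently for each library, with no structure by replicate. Many genes were changed at once, which eases the Benjamini-Hochberg cut, whereas limma called 0 genes in the real data. The rates therefore do not cover members of lower level, or a lone changed gene among unchanged ones. Nor do they cover the place of replicate 1 at one end of the first principal component.

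Positions and exon overlaps came from GENCODE M21 (GRCm38, the assembly mm10 names), in which all 64 member identifiers were found, 63 under the same name; transcripts were compared in windows of 50 bases. Promoter windows came from RefSeq (GRCm38.p6). The members and the gene lists were chosen with earlier results of these data known. Named with values were Senp1, the cytosolic stress-inducible members, the 5 tested members of highest mean, the 12 of smallest p, the ER and mitochondrial HSP70, HSP90 and HSP60 members, and up to 4 genes of smallest p per other list. No exact permutation test of 3 libraries against 3 can go below p = 0.1. The reads carry no molecular identifiers.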

Additional observations from a re-analysis of the deposited data

How the results depend on the processing

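No member was called under any of the 19 alternative settings, 1 of them added after the data were seen. Over all genes, DESeq2 called 23, the replicate block 1, the model with a term for replicate 1 called 3, and the added setting, which combines that term with leaving out cKO replicate 2, called 16; the other settings called 0. Members at an unadjusted p under 0.05 (1 in the reported fit) numbered 2 with quantile normalization, 2 with the term for replicate 1, 2 in replicates 2 and 3 alone, 6 in the added setting and 0 to 3 when a library was left out (0 without cKO replicate 3 or WT replicate 2, 3 without WT replicate 3). These counts stand beside 4.95%, 9.16%, 6.94% and 10.9% of all genes in the first 4 of these settings. When a library was left out, the share of all genes ranged from 2.34% to 9.3%. It was 3.57% without cKO replicate 3, 2.34% without WT replicate 2 and 4.03% without WT replicate 3. With library totals the median member difference was -0.060, beside -0.078 over all tested genes.

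The labels call the mice of both groups paired but tie no pair to a replicate number. Same-numbered libraries correlated at 0.49, 0.055 and 0.20 in their deviations from the group means, not all over 0.1, so the numbers were not taken as pairs, and cKO replicate 2 correlated best with WT replicate 3 (0.17). With the replicate block 3 members, Hspa1a, Hspa1b and Dnajc13, were at an unadjusted p under 0.05 (9.08% of all genes) and the smallest limma adjusted p of a member was 0.447.

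Signs turned in 9 of the 23 members named by rule, and for none was the cause tested. With library totals the values were -0.024 for Dnaja1, -0.069 for Hsp90aa1, -0.075 for Hsp90ab1 and -0.021 for Hspb1. With quantile normalization they were -0.073 for Hsp90aa1, -0.31 for Hsp90ab1 and -0.0044 for Hspa8, and with TMM factors -0.0049 for Hsp90aa1 and -0.010 for Hsp90ab1. A pseudocount of 0.5 gave -0.081 for Hspb1. Leaving out single libraries gave -0.080 to 0.13 for Hsp90ab1, -0.13 to 0.096 for Hsp90aa1, -0.093 to 0.36 for Hsph1, -0.057 to 0.17 for Dnaja1, -0.055 to 0.30 for Dnajb1, -0.043 to 0.82 for Dnajb4, -0.087 to 0.29 for Hspd1 and -0.027 to 0.52 for Hspb1. The other 14 kept their sign in each setting that tested them, which was 19 settings except for Dnaja4 (17, untested by edgeR and at a mean of at least 10). Dnajb9, named after its values were seen, changed sign in 3 of 19 settings, with a range of -0.84 to 0.60. Depth limits the members of few reads: 3 reads are worth 5.69 normalized counts in cKO replicate 2.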

Other observations

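Outside the heat shock and J-domain families, the mitochondrial import and proteolysis machinery, which hands proteins to Hspa9 and removes damaged ones, gave 0 of 14 genes at an adjusted or an unadjusted p under 0.05, with 10 positive and 4 negative differences and a median of 0.051, beside -0.0019 over all tested genes. Timm44, which anchors Hspa9 at the import channel of the inner membrane, had the smallest p of this list. In normalized counts it measured 435, 370.1 and 443 in cKO, against 390.3, 327 and 304 in WT, with overlapping groups and a limma difference of 0.29 ± 0.15 (SE; adjusted p = 0.915). Clpp, the protease of the mitochondrial matrix, measured 144, 118 and 179.7 in cKO, against 119, 136 and 71.8 in WT (0.46 ± 0.28, adjusted p = 0.926).

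In the chaperonin and prefoldin list 10 of 14 differences were positive. The prefoldin subunit gene Pfdn6 had the smallest p, at 386, 299.9 and 462 in cKO, against 351, 296 and 254 in WT (0.34 ± 0.20, limma adjusted p = 0.926). Pfdn2, another prefoldin subunit gene, was the 1 gene of this list with separate groups, at 234, 228 and 272 in cKO, against 226, 223 and 208 in WT (0.16 ± 0.15, adjusted p = 0.933). Within the HSP90 partners, Fkbp5, a cochaperone known as a target gene of steroid hormone receptors, measured 446, 258 and 286 in cKO, against 476, 449 and 347 in WT (-0.39 ± 0.23, adjusted p = 0.926).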
